A study of Mus musculus with 4 samples.

Results

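The genes described here are 9 components, receptors and regulators of the complement system: *C1qa*, *C1qb*, *C1qc*, *C3*, *C4b*, *C3ar1*, *C5ar1*, *Serping1* and *Cd59a*. They were chosen by name for their place in the pathway, with earlier results of these data known. In the whole series, 18194 genes have a probe set of their own. Every probe set that names 1 of these genes alone was taken on every array, which gave 13 of 45101 probe sets and covered 7 of the 9 genes. No probe set of *C3* is named in the annotation used, and the probe set of *C4b* is shared with *C4a*, so these 2 genes were not analysed here. Of the 7 measured genes, 6 were detected, and *C5ar1* was not.

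The arrays compared 4 conditions: contralateral and ipsilateral cortex of wild-type (WT) mice, and the same sides of P4H-TM deficient mice, written *P4htm*-/- here. All mice carried the strain label C57BL/6J and were 3 months old, and all had the left middle cerebral artery occluded permanently for 24 h, so that the contralateral cortex of the same operated animals served as the control and no sham or naive cortex was on the arrays. By the methods, the knockout line had been backcrossed to C57BL/6 and the animals were perfused through the heart with heparinised saline before the whole cortex was taken. The sex of the pooled mice is not given in the sources used here. Each condition was 1 array of RNA pooled from 4 mice, so no test could be made, and every difference below is a description of these 4 arrays without an error between animals. *P4htm*, the targeted gene, checked the labels: its 2 probe sets lay at log2 levels of 10.03 and 9.28 in WT contralateral cortex and at 8.27 and 7.57 in *P4htm*-/- contralateral cortex, and ipsilaterally at 10.02 and 9.15 against 8.23 and 7.57. *Snap25*, a presynaptic protein gene of neurons, had log2 levels between 13.82 and 13.98 on all arrays.

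Complement is a cascade of plasma and tissue proteins that tags debris, synapses and dying cells and draws in phagocytes. The classical pathway starts when C1q, built from the chains A, B and C encoded by *C1qa*, *C1qb* and *C1qc*, binds its target and activates the proteases C1r and C1s, which cut C4 and C2 and lead to the cleavage of C3. The fragments C3a and C5a act through the receptors C3ar1 and C5ar1, while the C1 inhibitor Serping1 blocks C1r and C1s and Cd59a prevents assembly of the membrane attack complex. In brain, C1q is made mainly by microglia.

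Values are log2 levels, and a difference of 0.585 on this scale is 1.5-fold. A probe set was counted as detected above a log2 level of 4.80, the 95th percentile of 80 probe sets for odorant, vomeronasal and bitter taste receptors, which cortex is not known to use. A gene with several probe sets is represented by the one with the highest mean. As a yardstick for differences, probe sets of the same gene scattered around each other with an SD of 0.174 for ipsilateral minus contralateral cortex in WT and of 0.126 in *P4htm*-/-, and with an SD of 0.151 and 0.146 for *P4htm*-/- minus WT on the contralateral and the ipsilateral side. These SDs compare different probe sets of a gene, so they do not hold the scatter of animals. They are not a measure of hybridization alone, and what makes the probe sets of a gene differ was not tested. For the 80 receptor probe sets that set the background limit, the SD was 0.207 in WT and 0.179 in *P4htm*-/- for the side difference. For *P4htm*-/- minus WT it was 0.176 contralaterally and 0.195 ipsilaterally.

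Of the 6 detected complement genes, *C3ar1* was higher past 1.5-fold in ischemic than in contralateral cortex by its main probe set. The other 5 were not by theirs, though another probe set of *C1qb* was 1.64-fold higher in WT. The anaphylatoxin receptor gene *C3ar1* was 2.64-fold higher in ipsilateral than in contralateral cortex of WT mice and 2.95-fold higher in *P4htm*-/- mice, the 3 C1q chains and *Serping1* lay 0.26 to 0.49 above the contralateral level on the log2 scale by their main probe sets, less than 1.5-fold, and *Cd59a* lay 1.24-fold above it in WT and 1.01-fold in *P4htm*-/- mice. The 6 detected genes were above background on all 4 arrays by their main probe sets. In WT their log2 side differences ran from 0.26 to 1.40 with a median of 0.445, where the median of all detected genes was -0.02. In *P4htm*-/- mice they ran from 0.01 to 1.56 with a median of 0.46, again beside -0.02 for all detected genes. Past 1.5-fold, 1 of 6 detected genes was higher in each genotype, *C3ar1*, and none was lower. Of all detected genes, 2.41% were higher and 0.444% lower in WT, and 1.53% were higher and 0.166% lower in *P4htm*-/- mice. In whole cortex a larger number of cells of a type and more RNA per cell cannot be told apart.

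**Figure D1:**
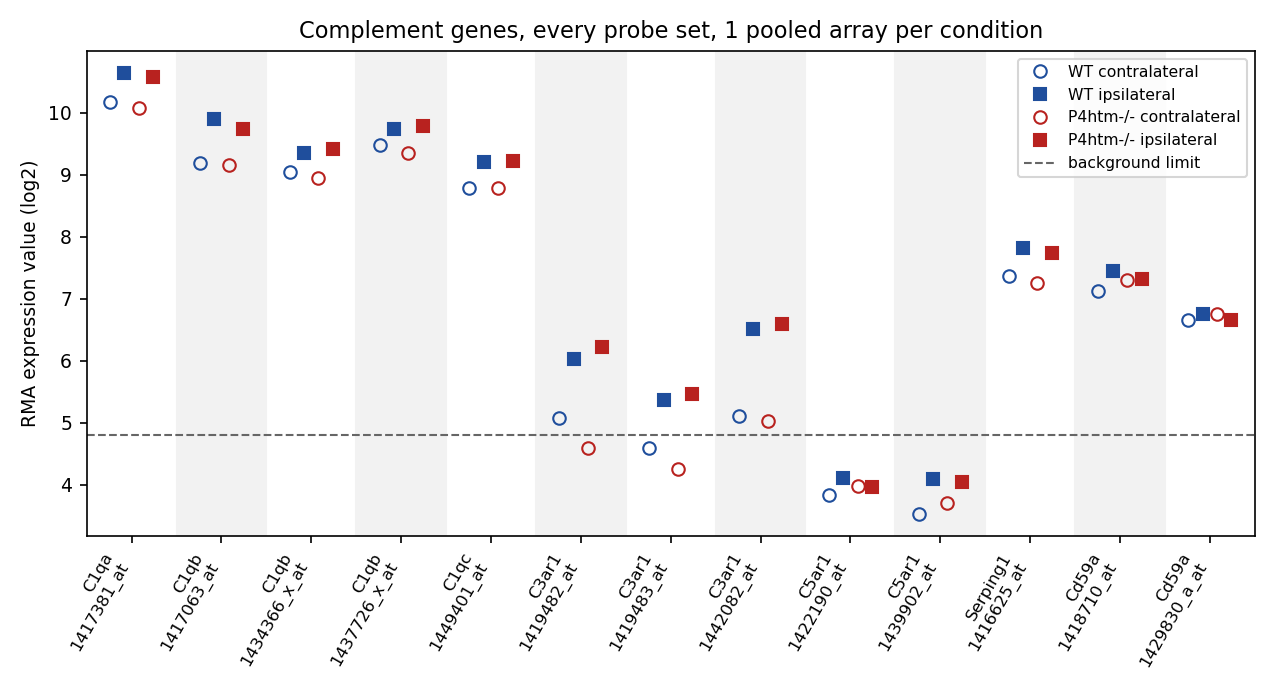
Log2 level (vertical axis) of each of the 13 probe sets of the 7 measured complement genes in contralateral (open circles) and ipsilateral (filled squares) cortex of WT (blue) and *P4htm*-/- mice (red), 1 point per array of RNA pooled from 4 mice, with no error bars since there are no replicate arrays. The background limit of 4.80 is dashed. The C1q chains stood far above it on every array, the *C3ar1* probe sets crossed or approached it in contralateral cortex, and both *C5ar1* probe sets stayed below it.

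*C1qa*, the gene of the A chain, had a log2 level of 10.17 in contralateral and 10.64 in ipsilateral cortex of WT mice, and of 10.08 and 10.57 in the same sides of *P4htm*-/- mice. Both ipsilateral arrays were above both contralateral arrays, and the log2 difference between sides was 0.47 in WT (1.39-fold) and 0.49 in *P4htm*-/- mice (1.40-fold). Among detected genes, 95.9% had a smaller difference than this in WT and 98.0% in *P4htm*-/- mice.

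*C1qc*, the gene of the C chain, had log2 levels of 8.78, 9.21, 8.79 and 9.22 in this order of arrays, which is kept below. The side difference was 0.43 in each genotype, and the genotypes lay 0.01 apart on each side.

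*C1qb*, the gene of the B chain, had 3 probe sets. The one with the highest mean read 9.47, 9.73, 9.34 and 9.78, a side difference of 0.26 in WT and 0.44 in *P4htm*-/- mice. The second highest read 9.18, 9.89, 9.16 and 9.73, with side differences of 0.71 and 0.57, and was the only C1q probe set past 1.5-fold, in WT (1.64-fold). The lowest read 9.04, 9.34, 8.95 and 9.41, with side differences of 0.30 and 0.46. The names of the highest and the lowest end in _x_at, and that of the second highest does not. All 3 placed both ipsilateral arrays above both contralateral arrays, but the second highest gave the larger side difference in WT and the other two gave it in *P4htm*-/- mice. The order of the genotypes for *C1qb* thus depended on the probe set, by -0.14 to 0.18 on the log2 scale, beside an SD of 0.195 for this difference of differences between probe sets of the same gene.

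Over the 5 C1q probe sets the log2 side difference ran from 0.26 to 0.71 in WT and from 0.43 to 0.57 in *P4htm*-/- mice. The mean over the 3 chains, 1 probe set each, was 0.39 in WT and 0.45 in *P4htm*-/- mice, and the chains differed from each other by at most 0.21 and 0.06. The 3 genes lie side by side on chromosome 4 in the order *C1qb*, *C1qc*, *C1qa*, with no other protein-coding gene between them in RefSeq, assembly GRCm38.p6. Because these neighbours moved by similar amounts, the 250 bases before the RefSeq start of *C1qb* (chr4:136886201-136886450) and *C1qc* (chr4:136892915-136893164), both on the minus strand of GRCm38.p6, are shown 5′ to 3′. Capitals mark GAGGAA or its reverse complement, the core bound by PU.1, a transcription factor of the myeloid lineage.
C1qb: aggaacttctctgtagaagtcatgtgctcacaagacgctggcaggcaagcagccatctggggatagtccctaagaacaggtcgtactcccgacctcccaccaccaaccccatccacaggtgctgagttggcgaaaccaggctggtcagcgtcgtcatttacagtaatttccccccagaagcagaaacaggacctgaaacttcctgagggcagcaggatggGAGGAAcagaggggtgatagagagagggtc
C1qc: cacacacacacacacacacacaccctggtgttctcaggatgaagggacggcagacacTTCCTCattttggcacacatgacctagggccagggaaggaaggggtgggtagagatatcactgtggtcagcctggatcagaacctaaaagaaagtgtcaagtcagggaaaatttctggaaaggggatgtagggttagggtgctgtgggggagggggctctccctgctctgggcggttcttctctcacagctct
The match starts 30 bases before the start of *C1qb* and, on the opposite strand, 193 bases before that of *C1qc*. GAGGAA occurs on either strand in 23.3% of the 32851 promoter windows of equal length, so a match by itself is common. The RefSeq promoter table held 6 of the 9 genes: *C1qb*, *C1qc*, *C3*, *C3ar1*, *C5ar1* and *Cd59a*.

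Marker genes of microglia, the main C1q source in brain, had a median near 0. Of 11 measured microglial markers, 6 lay above 0 and 5 below in WT and 7 above and 4 below in *P4htm*-/- mice, with median log2 side differences of 0.03 and 0.04, and 1 marker, *Fcrls*, was past 1.5-fold in each. *Tmem119*, a defining microglial gene, differed between sides by 0.03 and 0.04, and *P2ry12*, a purinergic receptor of resting microglia, by -0.38 and -0.39. Other markers of the list lay higher ipsilaterally without passing 1.5-fold: *Aif1*, which encodes Iba1, differed by 0.57 and 0.29, *Olfml3* by 0.46 and 0.33, and *Cx3cr1*, the fractalkine receptor, by 0.36 and 0.09. The summed microglial signal, as a log2 level, was 12.51, 12.57, 12.39 and 12.48 on the arrays in the order above. It is a sum of unlogged levels, in which the highest marker, *Csf1r*, at 11.75, 11.66, 11.58 and 11.62, weighs most. The part of cell numbers in the C1q values was not tested.

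Markers of tissue outside the cortical parenchyma also differed between sides. *Ttr*, the transthyretin gene of the choroid plexus, was higher ipsilaterally by 5.35 in WT and 4.59 in *P4htm*-/- mice on the log2 scale, with levels of 8.71, 14.06, 9.03 and 13.62. The 8 choroid plexus and ependymal markers had median side differences of 0.495 and 0.26, with 2 past 1.5-fold in each genotype, and the 8 meningeal and fibroblast markers 0.295 and 0.21, with 3 past it, among them the collagen gene *Col3a1* at 1.68 and 1.25. Of 6 measured blood markers 2 were detected, and both were past 1.5-fold between sides in WT only. *Hbb-b2*, a hemoglobin gene, read 5.06, 6.14, 6.04 and 6.26 by its main probe set. In contralateral cortex it was 0.98 higher in *P4htm*-/- than in WT mice. *Pf4*, a platelet gene, read 6.76, 7.45, 6.80 and 7.07. The part of such tissue or of blood in the differences of the complement genes was not tested.

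**Figure D2:**
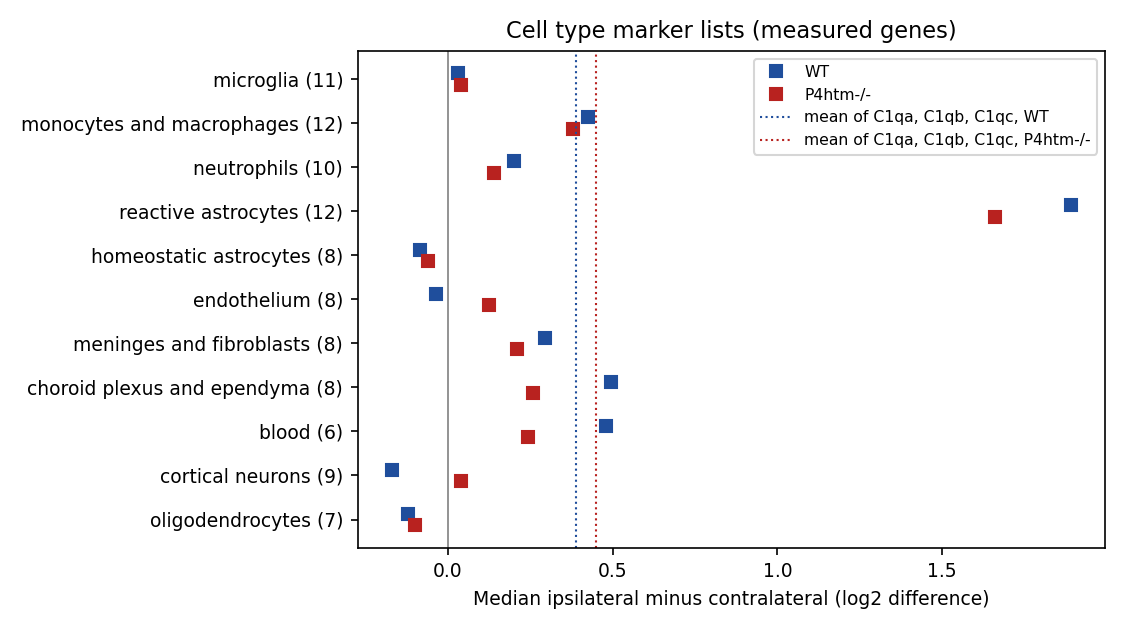
Median log2 difference between ipsilateral and contralateral cortex (horizontal axis) of each cell type marker list, in WT (blue) and *P4htm*-/- mice (red), with the number of measured genes in brackets and the mean of the C1q chains, 0.39 and 0.45, as dotted lines. Reactive astrocyte markers had medians of 1.89 and 1.66, monocyte and macrophage markers 0.425 and 0.38, and microglial markers 0.03 and 0.04. Each point compares 2 arrays and carries no error between animals.

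*C3ar1*, the receptor of the C3a fragment, had the largest side difference of the measured members in both genotypes. Its main probe set read log2 levels of 5.11 and 6.51 in contralateral and ipsilateral WT cortex and of 5.03 and 6.59 in *P4htm*-/- cortex, a side difference of 1.40 in WT and 1.56 in *P4htm*-/- mice. Of all detected genes, 99.6% and 99.8% had a smaller difference. The second probe set read 5.08, 6.02, 4.59 and 6.22, which gave a side difference of 0.94 (1.92-fold) in WT. In *P4htm*-/- mice its contralateral level was not above background, so the side difference there was at least 1.42. The third probe set read 4.59, 5.36, 4.25 and 5.47, below background on both contralateral arrays, for side differences of at least 0.56 and at least 0.67. All 3 probe sets put both ipsilateral arrays above both contralateral arrays. The contralateral levels stood close to the background limit of 4.80, so the size of the fold is less certain than its direction on these arrays.

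The 250 bases before the RefSeq start of *C3ar1* (chr6:122856158-122856407, minus strand, GRCm38.p6) are shown because this gene had the largest side difference. Capitals mark the sequence TGANTCA, the site of AP-1, a factor built from Fos and Jun proteins.
C3ar1: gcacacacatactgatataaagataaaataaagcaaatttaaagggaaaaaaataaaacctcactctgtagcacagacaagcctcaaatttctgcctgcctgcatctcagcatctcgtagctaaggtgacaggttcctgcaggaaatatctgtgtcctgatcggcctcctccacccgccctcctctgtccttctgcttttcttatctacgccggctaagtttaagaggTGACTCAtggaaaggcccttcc
The match starts 22 bases before the start, and TGANTCA, read on both strands, occurs in 6.75% of promoter windows. Of the other windows, that of *Cd59a* held GAGGAA 62 bases before the start and the interferon regulatory factor motif, GAAA repeated after a gap of 2 bases and present in 2.98% of windows, 187 bases before it. TTCNNNGAA, the STAT motif, occurs in 7.02% of windows and was in none of the 6, and the windows of *C3* and *C5ar1* held none of the 4 motifs. A match is a run of letters and does not show that a factor binds there.

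*C5ar1*, the receptor of the C5a fragment, was not above background on any array. Its probe sets read log2 levels of 3.84, 4.11, 3.98 and 3.96, and of 3.53, 4.09, 3.70 and 4.04, so its differences are not interpreted. Neutrophils carry this receptor. Their marker *S100a8*, a subunit of calprotectin, had log2 levels of 4.72, 7.20, 5.28 and 7.62, and *S100a9*, the other subunit, of 4.28, 6.74, 5.39 and 6.96, with both below background in WT contralateral cortex. Of 10 measured neutrophil markers these were the 2 past 1.5-fold in each genotype.

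*Serping1*, the C1 inhibitor, had side differences close to those of *C1qa*. Its log2 levels were 7.36 and 7.82 in contralateral and ipsilateral WT cortex and 7.25 and 7.73 in *P4htm*-/- cortex. Both ipsilateral arrays were above both contralateral arrays by a similar step, 0.46 in WT (1.38-fold) and 0.48 in *P4htm*-/- mice (1.39-fold).

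*Cd59a*, the inhibitor of the membrane attack complex, did not pass 1.5-fold in any comparison. Its main probe set read 7.13, 7.44, 7.30 and 7.31, a side difference of 0.31 in WT and 0.01 in *P4htm*-/- mice. The other read 6.65, 6.75, 6.75 and 6.65, with 0.10 and -0.10. The difference between genotypes in the side difference was -0.30 and -0.20, beside the SD of 0.195 of probe sets of the same gene, and was not tested.

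**Figure D3:**
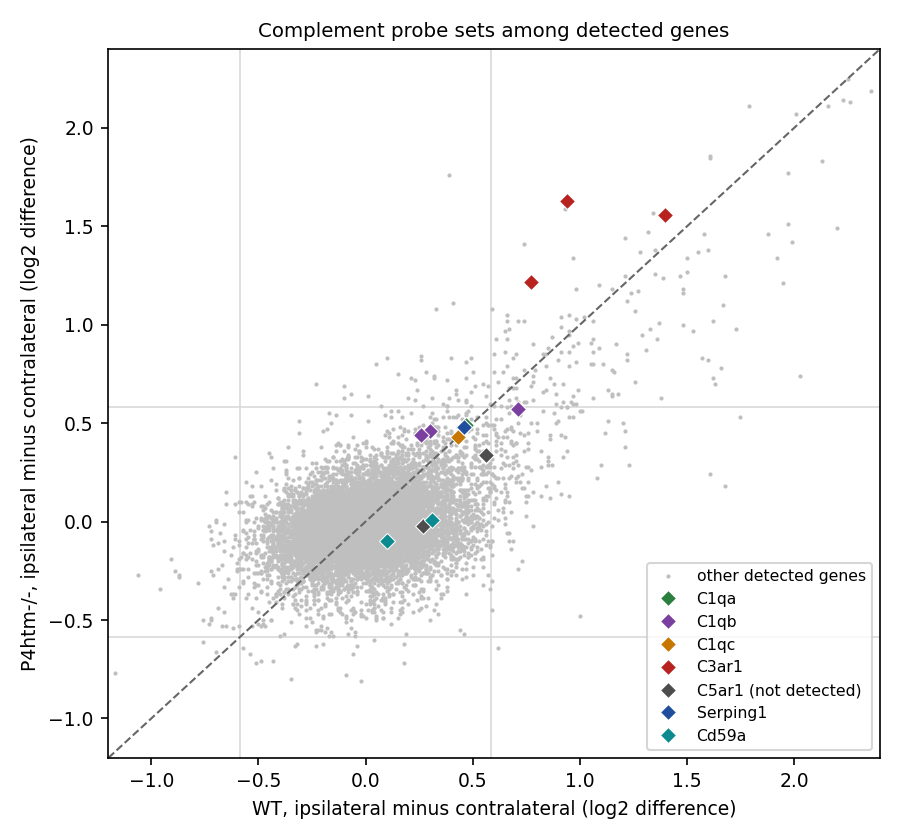
Log2 difference between ipsilateral and contralateral cortex in WT (horizontal axis) and *P4htm*-/- mice (vertical axis), 1 point per probe set of the complement genes over all detected genes in grey, with thin lines at 1.5-fold, a dashed line of equal values and axes that leave out some far genes. Values are as measured, also where a level was below background. The C1q chains and *Serping1* lay between 0.26 and 0.71 in WT and between 0.43 and 0.57 in *P4htm*-/- mice, with *C1qa* and *Serping1* overlapping, and *C3ar1* lay apart from them.

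Between genotypes no detected complement gene differed by 1.5-fold. In contralateral cortex, 2 of the 6 detected genes were above 0 and 4 below in *P4htm*-/- minus WT, from -0.13 (*C1qb*) to 0.17 (*Cd59a*) with a median log2 difference of -0.085. Of all detected genes, 0.228% were higher and 0.159% lower in *P4htm*-/- mice. In ipsilateral cortex, 3 were above 0 and 3 below, from -0.13 (*Cd59a*) to 0.08 (*C3ar1*) with a median of -0.03, where 0.09% of detected genes were higher and 0.578% lower.

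For the C1q chains the genotype difference ran from -0.13 to 0.01 over the 5 probe sets in contralateral cortex, with a mean over the chains of -0.07. Ipsilaterally it ran from -0.16 to 0.07. *Serping1* was at -0.11 and -0.09 on the contralateral and ipsilateral sides. These sizes were no larger than the scatter between probe sets of the same gene, 0.151 and 0.146, apart from the value of -0.16. Of 11 measured microglial markers, 2 lay above 0 and 9 below contralaterally, with a median of -0.11. Ipsilaterally 1 lay above and 10 below, with a median of -0.08. All 7 measured oligodendrocyte markers were also below 0 on both sides. The part of cell numbers in the genotype values was not tested. By ELISA, the study found less C1q protein in serum and cortex of untreated *P4htm*-/- mice than of WT mice. These arrays hold RNA of operated mice and do not address that protein result.

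The larger genotype values came from *C3ar1* probe sets near background. In contralateral cortex the second *C3ar1* probe set differed by -0.49 as measured, or -0.28 with the *P4htm*-/- level, which was below background, set to the limit, while the main probe set differed by -0.08. The third probe set differed by -0.34 as measured, with both contralateral levels below background. Ipsilaterally the 3 probe sets differed by 0.08, 0.20 and 0.11. For the change of the side difference with genotype, the second probe set gave 0.69 as measured, the only member probe set past 1.5-fold, and at least 0.48 with the limit, while the main probe set gave 0.16. No member by its main probe set passed 1.5-fold for this difference of differences, where 0.529% of all detected genes were higher and 1.36% lower. The third probe set gave 0.45 as measured and 0.11 with both contralateral levels set to the limit. All 3 *C3ar1* probe sets were thus above 0 for this difference. The 0.16 of the main one lay within the SD of 0.195 between probe sets of the same gene. The value past 1.5-fold rests on the second probe set, with its *P4htm*-/- contralateral level below background.

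**Figure D4:**
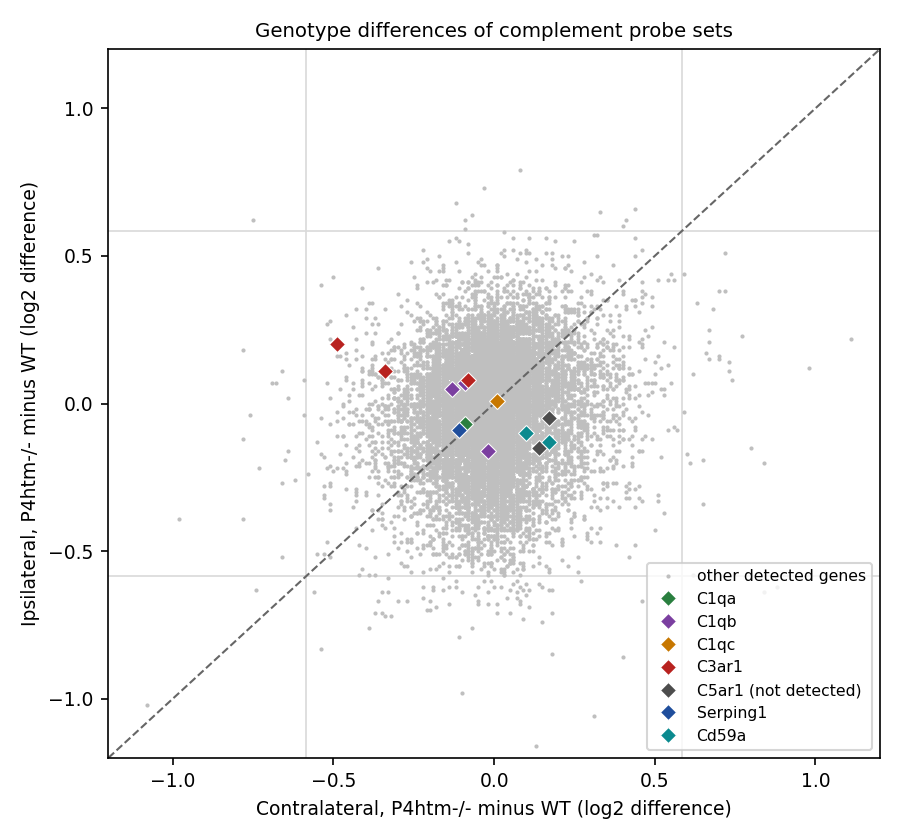
Log2 difference of *P4htm*-/- minus WT in contralateral (horizontal axis) and ipsilateral cortex (vertical axis), 1 point per probe set of the complement genes over all detected genes in grey, with thin lines at 1.5-fold, a dashed line of equal values and axes that leave out far genes such as *P4htm*. All complement probe sets lay between -0.49 and 0.17 contralaterally and between -0.16 and 0.20 ipsilaterally, and the value of -0.49 is a *C3ar1* probe set below background in *P4htm*-/- cortex. *C5ar1*, which was not detected, is drawn as measured.

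The wider complement system was read from lists of 54 genes, of which 43 were measured and 23 detected on at least 1 array of each side comparison. Most side differences past 1.5-fold were those of receptor genes. In WT, 4 of 23 detected genes were higher and 0 lower, and in *P4htm*-/- mice 3 were higher and 0 lower, beside the 2.41% and 1.53% of all detected genes given above. The median over the 43 measured genes, those not detected included, was 0.19 in WT, where the median of all genes was 0.00, and 0.01 in *P4htm*-/- mice, where it was -0.01. Without the members, 36 measured genes had medians of 0.11 and -0.005. These medians hold genes below background, such as the terminal pathway genes, at 0.20 and 0.02 with 0 detected. Their contrast between genotypes is therefore not interpreted. Of the 23 detected genes, 18 were above 0 and 5 below in WT, and 15 above and 8 below in *P4htm*-/- mice. By main probe sets, *P4htm*-/- minus WT gave 0 genes past 1.5-fold on either side.

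Of 8 measured receptor genes 4 were detected, and 3 were higher in each genotype, *C3ar1* among them. *Cd93*, a phagocyte and endothelial surface protein first described as a C1q receptor, had log2 levels of 7.41, 8.26, 7.46 and 8.34, a side difference of 0.85 in WT and 0.88 in *P4htm*-/- mice. A further probe set gave 0.78 and 0.82, and the other 3 were not above background on any array. With the mean of its 5 probe sets *Cd93* was not past 1.5-fold in either genotype. *Itgb2*, the beta chain of the complement receptors for bound C3 fragments, read 6.12, 6.74, 5.83 and 6.54, with side differences of 0.62 and 0.71 and a lower level in *P4htm*-/- mice on both sides, by 0.29 contralaterally and 0.20 ipsilaterally on the log2 scale. *Itgam*, the alpha chain that pairs with it, was at 6.22, 6.34, 5.97 and 6.53, differences of 0.12 and 0.56. It did not pass 1.5-fold and is named, after its values were seen, for its partnership with *Itgb2*. These receptors are carried by phagocytes in general. Of 12 measured markers of monocytes and macrophages, 4 were higher past 1.5-fold in WT and 3 in *P4htm*-/- mice. Their summed signal was 10.13, 10.86, 10.16 and 10.87 as a log2 level, and *Ccr2*, which defines the inflammatory subset, was not above background. The part of these cells in the receptor values was not tested.

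Among initiation genes, 14 were measured and 8 detected, and *C1ra*, the protease of the C1 complex, was past 1.5-fold in WT. Its levels were 4.99, 5.59, 5.06 and 5.29, a side difference of 0.60 in WT and 0.23 in *P4htm*-/- mice. These levels lay near the background limit, and after cyclic loess normalization it was not past 1.5-fold. Of 13 measured regulator genes 10 were detected and none passed 1.5-fold in any comparison. None of the 6 measured terminal pathway genes was detected on any array, so the lytic arm of the cascade could not be read here. *Cfp*, the positive regulator properdin, gave opposing readings: its main probe set lay at 7.72, 7.58, 8.15 and 7.93, and the other, at 5.16, 5.33, 5.21 and 5.98, was 0.77 higher ipsilaterally in *P4htm*-/- mice and 0.17 in WT. The probe sets differed by -0.22 against 0.77 in *P4htm*-/- mice, so no direction is given for its side difference. For *P4htm*-/- minus WT both probe sets were above 0 on each side. The main one was at 0.43 contralaterally and 0.35 ipsilaterally. The other was at 0.05 and 0.65, past 1.5-fold ipsilaterally, and this was not tested.

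**Figure D5:**
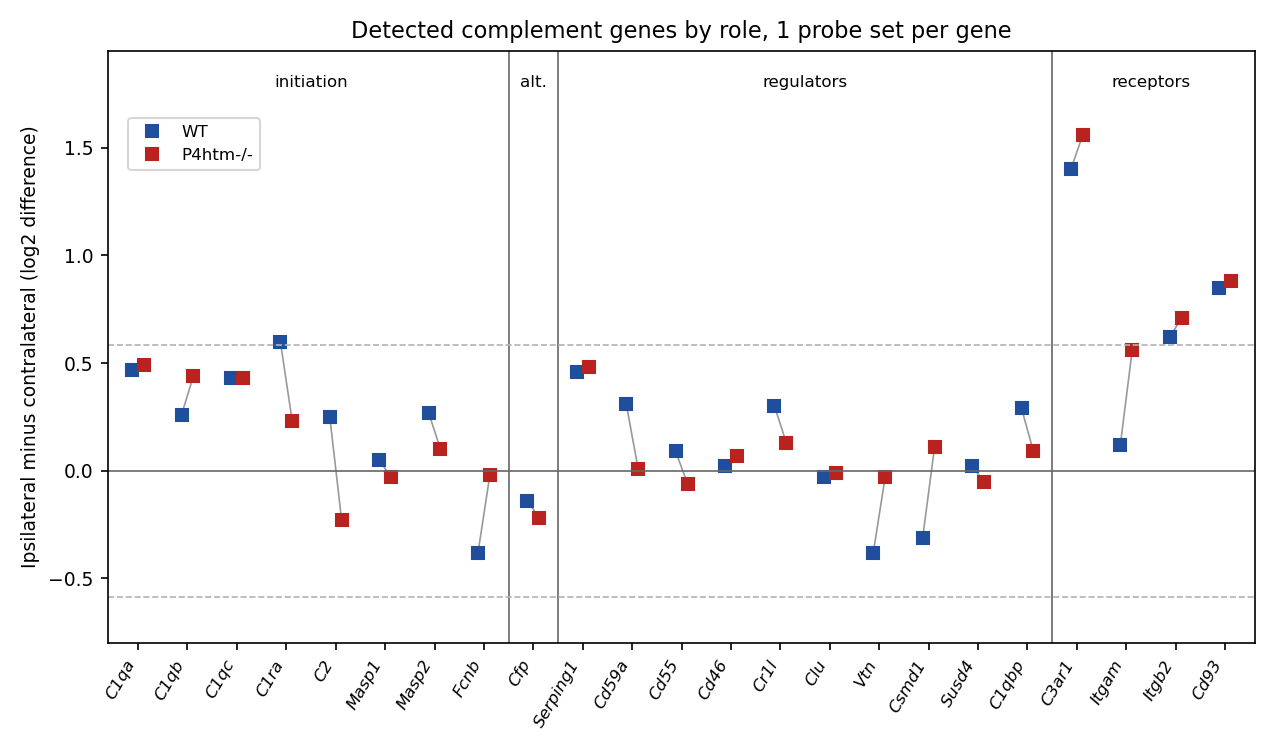
Log2 difference between ipsilateral and contralateral cortex (vertical axis) for the detected genes of the wider complement lists, 1 probe set per gene, in WT (blue) and *P4htm*-/- mice (red), ordered by role, where alt. marks C3 and the alternative pathway and dashed lines mark 1.5-fold. The receptors *C3ar1*, *Cd93* and *Itgb2* and, in WT, *C1ra* lay past 1.5-fold, at 1.40, 0.85, 0.62 and 0.60 in WT, while the regulators did not.

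The genes whose pattern over the 4 arrays was closest to that of each member were taken from 649 detected genes outside the complement lists whose range passed 1.5-fold, by the root mean square difference of centred log2 levels over the 4 arrays. For the C1q chains these were *Elk3* (0.053), *Irf9* (0.059) and *Sulf1* (0.06). For *C3ar1* they were *Adamts1* (0.072), *Gbp2* (0.09) and *AA467197* (0.101), and for *Serping1* *Sulf1* (0.019), *Elk3* (0.026) and *Klk8* (0.028). A likeness over 4 arrays is a description only. The ranges of the C1q chains (0.44 to 0.56), *Serping1* (0.57) and *Cd59a* (0.31) by their main probe sets lay under that of any gene in this pool. *Cd59a* came closest to *St6galnac1* (0.1), *Adamtsl3* (0.108) and *Adamts15* (0.11).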

How the data were processed

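RNA of cortex from 4 pooled mice per condition was hybridised to 4 arrays, 1 per condition. The authors quantified signals with the GeneChip Operating System and normalized them in GenePattern, per the methods, the submitters' processing notes name RMA, and the deposited values are on a log2 scale. Tool versions were not given in the sources used here, and base 2 was taken from the range, 2.51 to 14.9. RMA equalises the distributions of arrays, whose medians were 5.53 to 5.55 here, so a change shared by all genes would be removed.

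Of 45101 probe sets, 34958 name 1 gene and 34754 of these matched a RefSeq gene table (GRCm38.p6), used for names, neighbours and promoters only, since no build is named for the array. Probe sets naming several genes (932) or none (9211) were left out. All probe sets of the members were reported, and of the wider lists every detected gene past 1.5-fold. The members and lists were chosen with earlier results of these data known. Differences were computed with Python 3.11.15, numpy 2.4.6 and pandas 2.3.3, tested on simulated data, and recomputed with median centring, cyclic loess (limma 3.58.1, R 4.3.3), another probe set rule, a 2-fold threshold and a background limit at the 99th percentile, log2 level 6.60. On each array 58.9% to 59.5% of probe sets were above background.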

Additional observations from a re-analysis of the deposited data

Results flagged for a closer look

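*C2*, the protease cut by C1s in the classical pathway, had side differences of opposite sign in the genotypes. Its log2 levels were 6.26 and 6.51 in contralateral and ipsilateral WT cortex and 6.32 and 6.09 in *P4htm*-/- cortex, a log2 side difference of 0.25 in WT and -0.23 in *P4htm*-/- mice. Its other probe sets gave 0.16 against -0.03 and 0.08 against -0.16. The names of the main probe set and of the last one end in _x_at. For the side difference, the SD between probe sets of the same gene was 0.174 in WT and 0.126 in *P4htm*-/- mice. The difference between genotypes in the side difference was -0.48 by the main probe set and -0.19 and -0.24 by the others. The SD between probe sets of the same gene for this difference of differences was 0.195. With 1 array per condition the difference between genotypes was not tested, and no value reached 1.5-fold.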

How the results depend on the processing

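Median centring changed no member value by more than 0.02 and cyclic loess by no more than 0.05 on the log2 scale. Of 175 member values under other scalings and probe set choices, 157 moved by less than the scatter of same-gene probe sets, 18 moved by more, and no value past 1.5-fold changed sign. Many of the 157 could not move, since *C1qa*, *C1qc* and *Serping1* have 1 probe set each. Of 35 values per setting, the second highest probe set moved 10 by more than the scatter and the mean of probe sets 4. Leaving out the 2 suffixes moved 4, all of *C1qb*, the only member it could alter. Of 81 recomputed counts, 43 were 0 in both settings and say little. Of the other 38, 28 stayed within 1.5 times and 10 did not. Cyclic loess left 3 genes of the wider list in WT, without *C1ra*, and the mean of probe sets left 3 in WT and 2 in *P4htm*-/- mice, without *Cd93*. With the background limit at the 99th percentile the members higher ipsilaterally fell from 1 to 0 in both genotypes, since *C3ar1* is under that limit, and the wider list fell to 2 in WT (*Cd93*, *Itgb2*) and 1 in *P4htm*-/- mice (*Cd93*). At 2-fold the wider list kept 1 gene in each genotype, *C3ar1*. With the second highest probe set, or without probe sets whose names end in _x_at or _s_at (an alternative chosen after seeing the data), 2 members were higher in WT, *C1qb* and *C3ar1*. The second highest probe set also gave 1 member for the difference of differences (*C3ar1*) and 1 gene of the wider list, *Cfp*, higher in *P4htm*-/- ipsilateral cortex. What makes the probe sets of a gene differ was not tested. No paired analysis was possible because each condition was 1 array, and no array could be left out. Signal over background limits *C3ar1*, *C1ra* and *C5ar1* most.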
